A study of Mus musculus with 12 samples.

Results

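Vcam1, Mcam and Icam5, 3 genes for adhesion molecules of the immunoglobulin superfamily, were examined in mouse pancreatic stellate cells (PSCs). They were taken by name from the 420 genes listed for a targeted RNA panel of matrix and adhesion genes. They were chosen by their normalized counts in these same libraries, with the differences between the 4 groups known, so those differences are given below as a description, with no p-value, and where 1 of the 3 is said to be called by the fit over all genes, that too is description only. All 3 were found in the tables.

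The data were 12 libraries, 3 (A, B and C) in each of 4 groups: WT PSCs with vehicle, PKN2 KO PSCs with vehicle, WT PSCs with TGF-β1 and PKN2 KO PSCs with TGF-β1. PKN2 is a protein kinase. The study compared PSCs with and without it for genes of the matrix and of adhesion, at rest and under TGF-β1, a cytokine that drives fibroblasts towards myofibroblasts. TGF-β1 was given at 5 ng/ml for 72 h and the cultures of all groups were grown in medium with serum. By the study's methods the PSCs came from the pancreas of 1 Rosa26-CreERT2 PKN2 fl/fl mouse on a C57BL/6 background, were immortalised with SV40 large T antigen, and lost PKN2 after treatment with 4-hydroxytamoxifen. The floxed allele, the Cre gene and the large T antigen are thus shared by WT and KO cells. For these libraries the methods name no WT cells given 4-hydroxytamoxifen. Loss of PKN2 can therefore not be told apart from that treatment or from active Cre in the comparisons of KO with WT. The age of the mouse is not given in the sources used here. The series text calls them lines, whereas the methods describe cells of 1 mouse. The methods call the replicates of in vitro work biological in general, but the sources used here do not say what separated libraries A, B and C (dish, passage or clone), so p-values measure only the spread between these libraries. Pkn2 itself is not among the 420 genes, and its loss was not examined here.

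Cell adhesion molecules of this superfamily are single-pass membrane proteins with a row of immunoglobulin domains outside the cell. VCAM1 binds the α4β1 and α4β7 integrins of leukocytes and appears on endothelium and stromal cells under inflammatory cytokines. MCAM, also called CD146, is found on endothelium, pericytes and mesenchymal stromal cells, where it binds laminins that hold the α4 chain. ICAM5, or telencephalin, is best known from the dendrites of forebrain neurons and binds the leukocyte integrin LFA-1, as its relatives ICAM1 and ICAM4 also can.

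In the GENCODE M21 annotation of GRCm38, Vcam1 (ENSMUSG00000027962) lies on the minus strand at chr3:116109949-116129688. Mcam (ENSMUSG00000032135) and Icam5 (ENSMUSG00000032174) lie on the plus strand of chromosome 9, at chr9:44134469-44142727 and chr9:21032073-21039036. Each shares bases with a gene on the opposite strand: Gm43109 for Vcam1, Gm10687 for Mcam, and Gm47079, Gm26592 and Mir1900 for Icam5. The sources used here do not say whether reads were counted by strand, and reads of such overlapping genes could then not be told apart.

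Sequence before the start that RefSeq gives a gene (GRCm38.p6, plus strand) was matched for 2 of the 3 genes, Mcam and Icam5. RefSeq starts Mcam further downstream than the GENCODE annotation above does, so the Mcam stretch shown lies inside the gene as GENCODE places it. Stretches of both are shown because only these 2 were matched, and no link between motifs and the response to TGF-β1 was tested. Capitals mark TGACGTCA, the cyclic AMP response element, in Mcam and GGGCGG, the Sp1 box, on either strand in Icam5. The Icam5 stretch is the 250 bases before the start, chr9:21031788-21032037, and the Mcam stretch is 30 bases, chr9:44134618-44134647.
Mcam: ccccgccccccTGACGTCAgcccccgacag
Icam5: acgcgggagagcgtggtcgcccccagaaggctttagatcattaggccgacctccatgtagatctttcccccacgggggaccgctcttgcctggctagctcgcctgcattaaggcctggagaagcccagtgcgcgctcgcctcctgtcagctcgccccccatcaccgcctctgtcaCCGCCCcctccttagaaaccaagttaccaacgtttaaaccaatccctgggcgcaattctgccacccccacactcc

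Both strands of the 250 bases before the start were searched for 5 motifs, and the same stretch of all 32851 promoters in the table for comparison. GGGCGG was found 5 times for Mcam and 1 time for Icam5, and 32.7% of all promoters held it. TGACGTCA, which 1.55% of all promoters held, was found in Mcam alone of the pair. The E-box CANNTG, present in 66.2% of all promoters, had 1 match in Mcam. The SMAD binding element GTCTAGAC and the TEAD motif GGAATG, present in 0.167% and 12.6% of all promoters, had no match in either stretch, which says only that these letters were not in these windows.

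Each library held 1074095 to 1473153 reads, and 77 of the 420 genes had no read in any of them. Values are normalized counts, the reads of a gene divided by 1 factor per library that the authors took from reference genes. A factor makes 1 read worth 0.676 to 1.37 normalized counts, and this was highest in library A and lowest in library B of every group. Differences between groups are on the scale of log2(normalized count + 1), with the standard error (SE) of a limma fit over the 238 genes that reached a normalized count of 10 in at least 3 libraries. A gene was called where its Benjamini-Hochberg adjusted p over the 238 genes was under 0.05. Vcam1 and Mcam reached the minimum in all 12 libraries, whereas Icam5 passed through its vehicle libraries and 1 library with TGF-β1, so that a difference with TGF-β1 was built into its passing. Among the other genes named below, Amigo2, Bcam, Dcn, Itga9 and Itgb2 passed through vehicle libraries alone and Cd93, Lamb3, Mmp9 and Selp through libraries with TGF-β1 alone, so their calls for TGF-β1 carry the same limit and are given without p.

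Vcam1 was almost lost under TGF-β1 in both genotypes. In WT PSCs with vehicle its normalized counts were 1106, 864 and 851 in libraries A, B and C, a mean of 940.3 ± 143 (SD, n = 3). With TGF-β1 they were 46.0, 37.9 and 59.6, a mean of 47.8 ± 10.9. No library with TGF-β1 came near a vehicle library, a separation that 30.3% of the 238 genes showed downwards, and the mean was 19.7-fold lower, a log2 difference of -4.28 (SE 0.26). In PKN2 KO PSCs the vehicle libraries read 681, 618 and 683 (660.4 ± 37.1) and those with TGF-β1 27.4, 22.4 and 45.2 (31.6 ± 12.0). Here too the groups lay apart, as for 31.5% of the genes, and the KO mean was 20.9-fold lower with TGF-β1, a log2 difference of -4.40 (SE 0.26). Of the 238 genes, Vcam1 had the 9th most negative difference in WT and the 8th in KO cells. The reads behind the values were 863 to 1279 per WT vehicle library and 20 to 37 per KO library with TGF-β1. In bulk samples fewer cells that make a transcript and less transcript per cell cannot be told apart.

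Between genotypes the differences of Vcam1 were small beside that response. With vehicle every KO library was below every WT library, and the means stood at 660.4 against 940.3, a log2 difference of -0.50 (SE 0.26). Such a gap, with all KO libraries below, was present in 8.4% of the 238 genes, and Vcam1 was not among the 33 genes called in that comparison (13.9%). With the replicate letter as a block it was called, among 87 genes, but not with that block and no variance trend. With TGF-β1 the KO and WT libraries overlapped, the KO library C (45.2) lying above the WT library B (37.9), at a log2 difference of -0.62 (SE 0.26). Vcam1 was not among the 36 genes called there (15.1%), but it was without KO library C, at -0.90, and with the median of ratios as the scaling, at -0.74. It was also called there with the replicate letter as a block, among 101 genes, and with that block and no variance trend, among 90. The response to TGF-β1 differed between genotypes by -0.12 (SE 0.36), and Vcam1 was not among the 8 genes called in that comparison (3.36%).

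**Figure D1:**
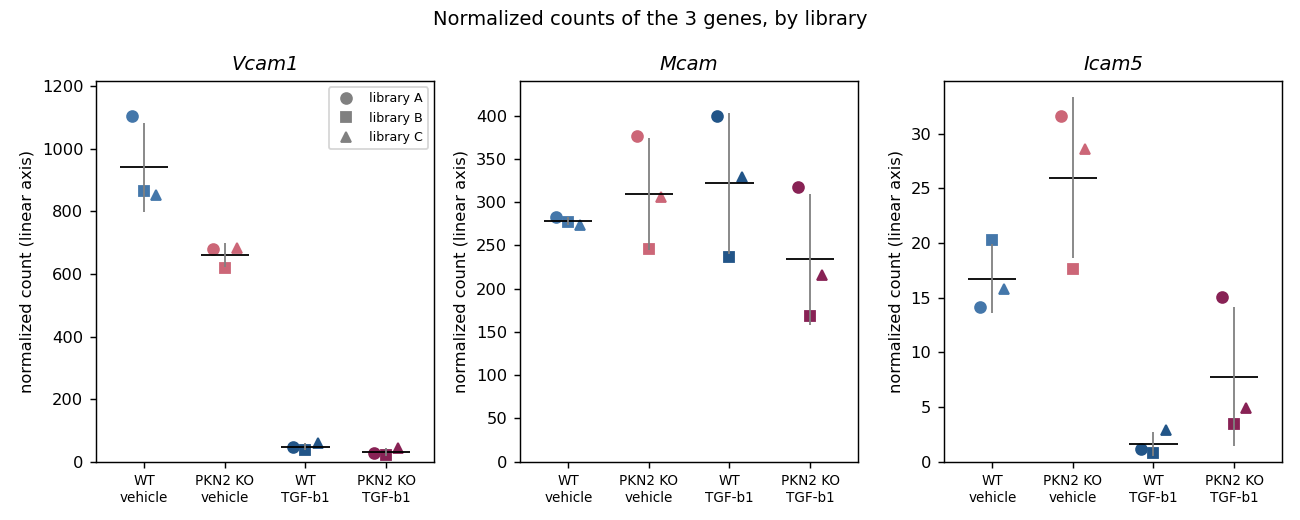
Normalized counts (linear axes, each from 0) of Vcam1, Mcam and Icam5 in the 3 libraries (A circle, B square, C triangle) of each group, with the group mean (black line) and SD (grey bar). Vcam1 fell from 617.6 or more in every vehicle library to 59.6 or less in every library with TGF-β1, Mcam overlapped between all groups, and Icam5 stayed at 31.7 or less.

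Mcam stayed at one order of magnitude in all 12 libraries, from 168.5 to 400.0. In WT PSCs with vehicle the normalized counts were 283, 277 and 274 in A, B and C (278.1 ± 4.66), and in KO PSCs with vehicle 376, 246 and 306 (309.5 ± 65.2). With TGF-β1 they were 400.0, 237 and 329 in WT cells (321.9 ± 81.7) and 317, 168 and 216 in KO cells (234.0 ± 76.0). The libraries of every pair of neighbouring groups overlapped in this order, and the lowest mean was that of KO cells with TGF-β1. The KO minus WT log2 difference was 0.13 (SE 0.25) with vehicle and -0.48 (SE 0.25) with TGF-β1. The TGF-β1 minus vehicle log2 difference was 0.18 (SE 0.25) in WT and -0.43 (SE 0.25) in KO cells, which differ by -0.61 (SE 0.35). Fitted with the authors' factors, all 12 libraries and no block for the replicate letter, Mcam was called in none of the 5 comparisons. At these SEs that does not show that its levels were equal. Without KO library A with TGF-β1 the KO difference was -0.67 and was called. With the replicate letter as a block Mcam was called for KO against WT with TGF-β1, among 101 of the genes. The block also called it for TGF-β1 in KO cells, among 153, and for the difference in response.

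The picture of Mcam changed with the scaling of the libraries. With the authors' factors library A, where 1 read was worth most, was its highest library in all 4 groups. Scaled to the total reads of the panel, the same reads gave 292.6 ± 19.4 in WT cells with TGF-β1 (273 to 312) and 209.0 ± 18.7 in KO cells (194 to 230). The coefficient of variation fell from 25.4% to 6.65% and from 32.5% to 8.95%, and the 2 groups no longer overlapped, while that of the WT vehicle libraries rose from 1.67% to 11.4%. With that scaling the KO minus WT log2 difference with TGF-β1 was -0.48, as before, and Mcam was now among the called genes, 65 of 238 (27.3%). TMM scaling put it among 56 called genes (23.5%), at -0.59, and the median of ratios over all genes put it among 55 (23.1%), at -0.60. With vehicle the sign of the KO minus WT difference was not fixed, at 0.13 with the authors' factors, 0.07 by total reads, -0.05 by TMM and -0.10 by the median of ratios. The difference of Mcam between TGF-β1 and vehicle also turned to -0.07 in WT cells with total reads, and in KO cells it was -0.63 and called.

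**Figure D2:**
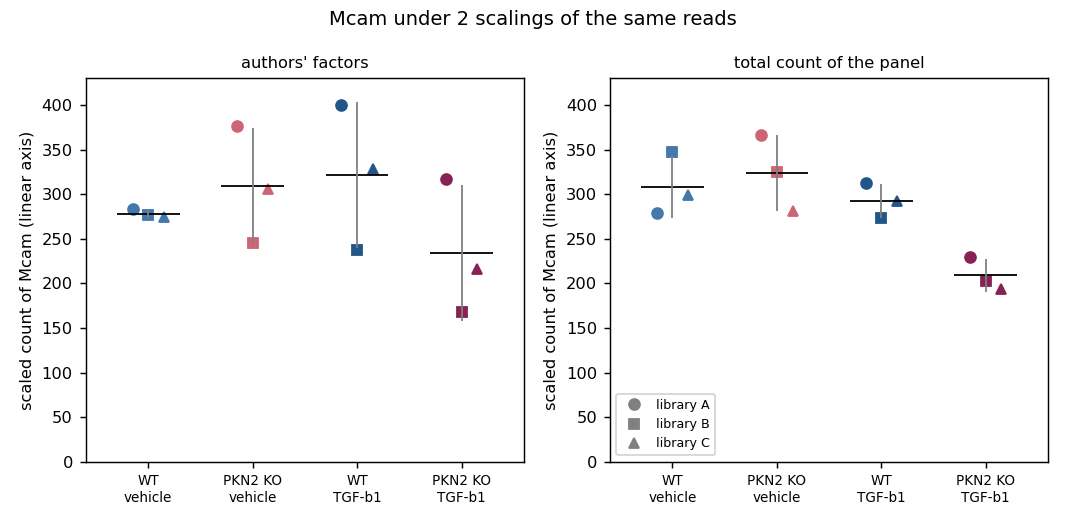
Mcam reads of each library scaled with the authors' factors (left) and with the total reads of the panel (right), on linear axes from 0, with the mean (black line) and SD (grey bar) of each group. With TGF-β1 the WT and KO libraries overlap on the left and lie apart on the right, at 273 to 312 and 194 to 230.

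Icam5 was measured by few reads. In WT PSCs with vehicle its normalized counts were 14.2, 20.3 and 15.8 in A, B and C (16.7 ± 3.17), and in KO PSCs with vehicle 31.7, 17.7 and 28.6 (26.0 ± 7.36). With TGF-β1 they were 1.18, 0.79 and 2.88 in WT cells, from 1, 1 and 3 reads, and 15.0, 3.44 and 4.88 in KO cells, from 11, 4 and 4 reads. The vehicle libraries of the 2 genotypes overlapped, at a log2 difference of 0.58 (SE 0.51). All KO libraries with TGF-β1 were above all WT libraries with TGF-β1, as for 17.6% of the genes, and the means with TGF-β1 were 1.62 ± 1.11 in WT and 7.79 ± 6.33 in KO cells.

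Icam5 had fewer reads with TGF-β1 in both genotypes. From 58 reads to 5 in WT cells, the ratio of vehicle to TGF-β1 was 10.9 with an exact 95% interval of 4.43 to 35.0, and from 79 reads to 19 in KO cells it was 3.51 (2.11 to 6.14). Intervals of this kind cover counting error only. The fitted log2 differences were -2.83 and -1.81 (SE 0.51), and their difference was 1.02 (SE 0.72), which was not called. The KO minus WT log2 difference with TGF-β1 was 1.60 (SE 0.51). Icam5 was called in that comparison, close to the threshold, but only 2 of the 12 fits that left out 1 library kept the call. Leaving out any vehicle library lost it with the difference unchanged at 1.60. The call was also lost with no filter, and with a pseudocount of 5, at 0.86. Without KO library A, which held 11 of the 19 reads, the difference was 1.05 and the call was lost. DESeq2 and edgeR on the reads gave 2.22 and 2.12, and neither called it.

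Side by side, 2 of the 3 genes, Vcam1 and Icam5, were called lower with TGF-β1 in WT cells, where 26.9% of the 238 genes were called lower. The same 2 were called lower in KO cells, where 29.0% were. The 2 comparisons between genotypes called 0 of the 3 with vehicle, where 13.9% of the 238 genes were called. With TGF-β1 they called 1 of the 3, Icam5, where 15.1% were called. Since these contrasts chose the genes, nothing is read from the counts, and the comparisons share libraries, each group entering 2 of them besides the difference in response. The order of the group means was WT vehicle, KO vehicle, WT TGF-β1 and KO TGF-β1 for Vcam1, with all neighbours apart except the last pair. For Icam5 it was KO vehicle, WT vehicle, KO TGF-β1 and WT TGF-β1, where only the last pair lay apart.

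Other immunoglobulin-type adhesion molecules on the panel moved in both directions with TGF-β1. Of 26 such genes 8 had no read, 11 stayed below the minimum and 7 were tested. In WT cells 4 of the 7 rose and 2 fell, and in KO cells 3 rose and 2 fell, against 23.9% of all 238 genes called higher and 26.9% lower in WT and 19.7% and 29.0% in KO cells. The number that fell depends on the filter, since both that fell, Bcam and Amigo2, passed through vehicle libraries alone. With no filter 4 rose and 5 fell in WT and 3 rose and 4 fell in KO cells, and with a minimum of 10 in every library 4 and 3 rose and 0 fell. The median log2 difference of the 7 was 0.68 in WT and 0.24 in KO cells, beside 0.00 and -0.14 over the 238 genes. Between genotypes 1 of the 7 was called with vehicle, near the 13.9% of all genes, and, by limma, DESeq2 and edgeR, 0 with TGF-β1, beside 15.1% of all genes by limma, where 1 had an unadjusted p under 0.05 by limma, L1cam.

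The closest structural relatives of MCAM on the panel are ALCAM, a receptor of CD6 on T cells, and BCAM, the Lutheran receptor for laminins with the α5 chain. Alcam read 594, 449 and 457 normalized counts in WT cells with vehicle and 3623, 2882 and 3428 with TGF-β1, with no overlap. It rose by 2.73 on the log2 scale in WT (SE 0.18, limma adjusted p = 1.15e-08) and by 2.92 in KO cells (SE 0.18, limma adjusted p = 7.79e-09). Bcam went the other way, from 54 reads to 3 in WT cells, a ratio of vehicle to TGF-β1 of 17.0 (exact 95% interval 5.51 to 84.9), and from 36 reads to 4 in KO cells, a ratio of 7.60 (2.73 to 29.4). These intervals cover counting error only, and Bcam passed the minimum through vehicle libraries alone. Mcam lay between Alcam and Bcam, at log2 differences of 0.18 in WT and -0.43 in KO cells.

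Among the neural adhesion molecules, Ncam1, a homophilic receptor that stellate cells of the liver also carry, rose from 1390, 895 and 1196 to 6776, 4654 and 5846 normalized counts in WT cells. The log2 rise of Ncam1 was 2.32 in WT (SE 0.23, limma adjusted p = 6.93e-07) and 2.07 in KO cells (SE 0.23, limma adjusted p = 2.55e-06). L1cam, whose protein guides neurites, was the gene of this group called between genotypes with vehicle. Its normalized counts were 1005, 709 and 743 in WT and 1764, 1176 and 1594 in KO cells, all KO libraries above, at 0.88 (SE 0.20, limma adjusted p = 0.00912). The call was lost without WT vehicle library C, at 0.82, and without KO vehicle library A, at 0.76. L1cam also rose with TGF-β1 in WT cells by 0.68 (SE 0.20, limma adjusted p = 0.0116), lost without WT vehicle library B, and in KO cells its difference was 0.24 (limma adjusted p = 0.376).

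Pvr, the poliovirus receptor that NK and T cells read through CD226 and TIGIT, rose by 1.54 in WT (SE 0.21, limma adjusted p = 2.29e-05) and by 0.84 in KO cells (SE 0.21, limma adjusted p = 0.00412). The KO call of Pvr was lost with scaling to total reads, at 0.65. The difference between these responses was -0.69 (SE 0.30, limma adjusted p = 0.490). Amigo2, a leucine-rich repeat protein with 1 immunoglobulin domain, fell from 139 reads to 3 in WT cells, a ratio of vehicle to TGF-β1 of 43.7 (exact 95% interval 14.7 to 215). In KO cells it fell from 92 reads to 1. The interval covers counting error only, and Amigo2 passed the minimum through vehicle libraries alone. Nptn, neuroplastin, had differences of -0.38 in WT and -0.44 in KO cells (limma adjusted p = 0.174 and 0.121).

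**Figure D3:**
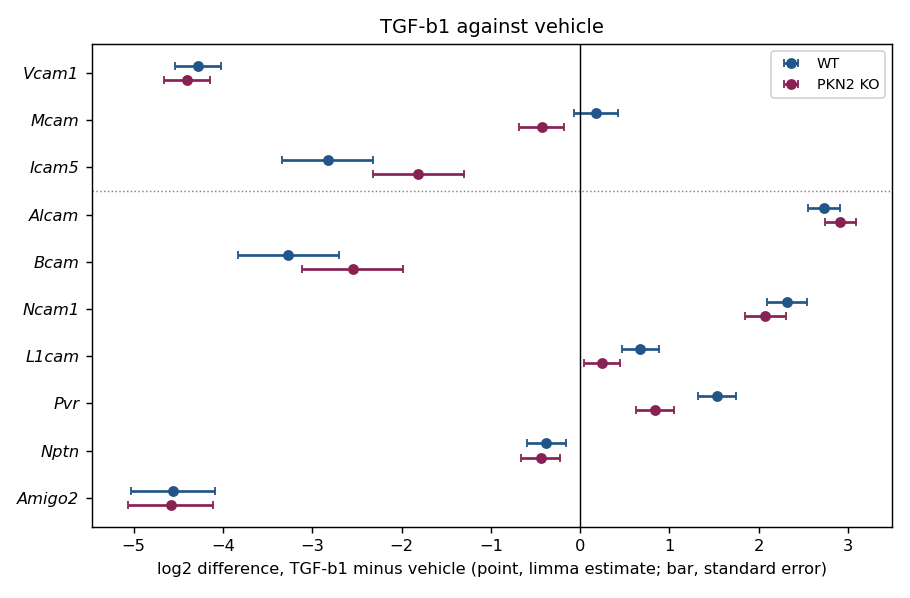
Log2 differences with TGF-β1 against vehicle (points, limma estimates; bars, SE) of Vcam1, Mcam and Icam5 (above the dotted line) and of 7 other immunoglobulin-type adhesion molecules, in WT and PKN2 KO PSCs. Vcam1 and Amigo2 lie beyond -4 in both genotypes, whereas Alcam and Ncam1 lie beyond 2.

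**Figure D4:**
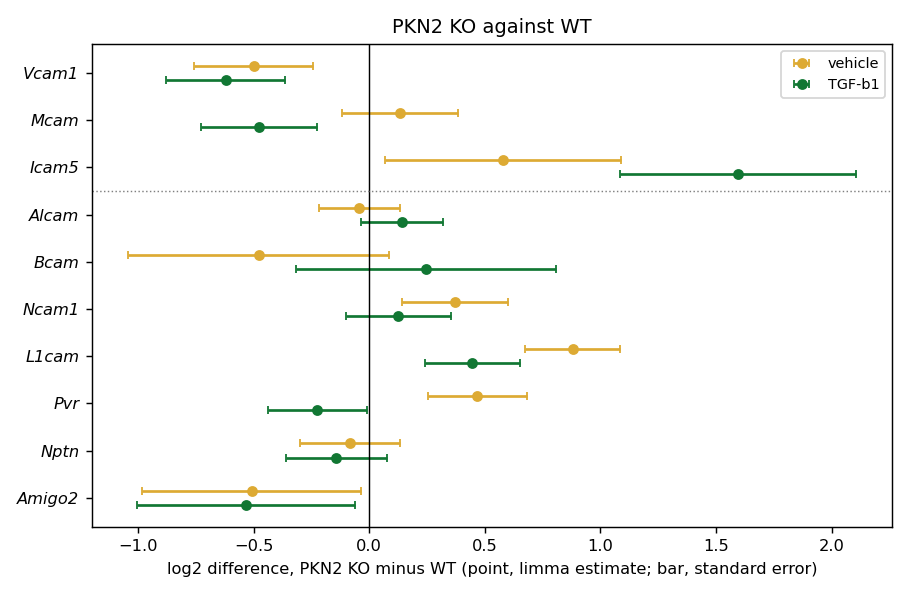
Log2 differences of PKN2 KO against WT PSCs (points, limma estimates; bars, SE) of the same 10 genes, with vehicle and with TGF-β1. Vcam1 lies below 0 in both at -0.50 and -0.62, L1cam above 0 in both at 0.88 and 0.45, and Icam5 at 0.58 and 1.60.

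Icam5 is the last of 3 genes of its family in a row on chromosome 9. Icam1 (chr9:21015985-21028817) ends 555 bases before Icam4 (chr9:21029373-21030595), and Icam4 ends 1477 bases before Icam5, all on the plus strand. Neither neighbour reached the minimum for the test, and their reads are given as they were. Icam1, the inducible ligand of LFA-1, had 6, 5 and 4 reads in WT and 13, 9 and 13 in KO cells with vehicle. With TGF-β1 it had 0 in all WT libraries and 0, 2 and 0 in KO libraries. Icam1 was thus at least 1.57-fold lower in WT cells, taking the limit of 3 reads that a count of 0 allows in each library, and the ratio of vehicle to TGF-β1 in KO cells was 14.8 (exact 95% interval 3.80 to 127).

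Icam4, first known from red cells, had 4, 10 and 8 reads in WT and 9, 5 and 10 in KO cells with vehicle. With TGF-β1 it had 2, 0 and 1 and 1, 2 and 5 reads. Its ratio of vehicle to TGF-β1 was 6.92 (exact 95% interval 2.08 to 36.1) in WT and 2.53 (1.10 to 6.53) in KO cells. With TGF-β1 the median log2 difference over the 238 tested genes was 0.00 in WT and -0.14 in KO cells. Of those genes 26.9% and 29.0% were called lower, and Icam1 and Icam4 are not among them. All 3 neighbours had fewer reads with TGF-β1 in both genotypes, which is a direction without a threshold, unlike these shares. Icam1 and Icam4 were added after their values were seen and Icam5 was chosen by its own, so nothing is read from this likeness. The intervals cover counting error only. Every KO library with vehicle had more Icam1 reads than every WT library, but as normalized counts they overlapped, with KO library B at 6.36 and WT library A at 7.08.

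**Figure D5:**
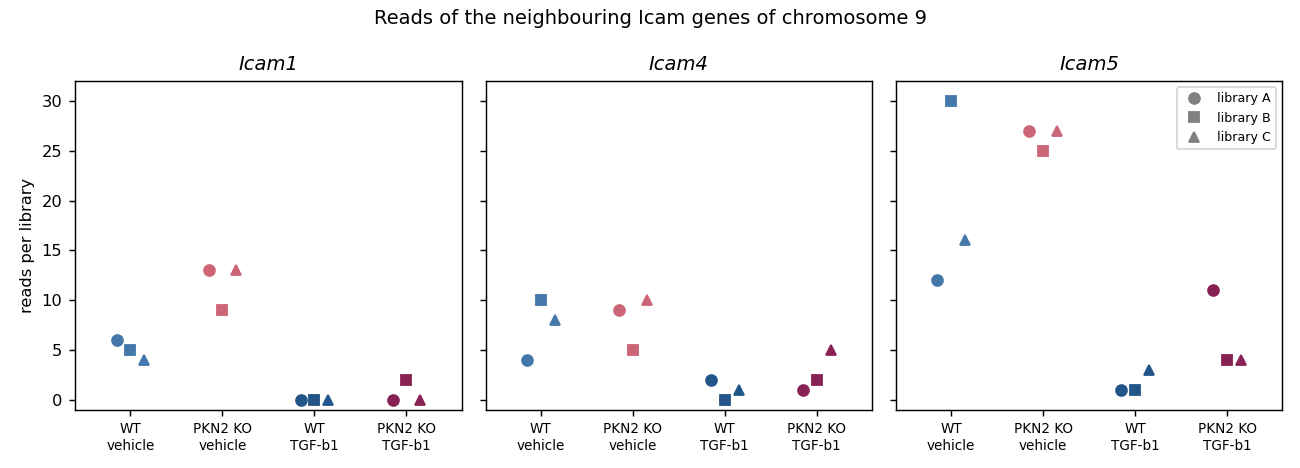
Reads per library of Icam1, Icam4 and Icam5, the neighbours on chromosome 9, in the 4 groups (A circle, B square, C triangle; linear axis). With TGF-β1 Icam1 had 0 to 2 reads and Icam4 0 to 5 reads, and Icam5 had 1 to 3 reads in WT and 4 to 11 reads in KO libraries.

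Most chains on the fixed list of integrin receptors of VCAM1 and the ICAMs are those of leukocytes. Itga4, the α4 chain through which cells bind VCAM1, and Itgal, the α chain of LFA-1, had no read in any library, and 3 further chains stayed below the minimum. Of the 4 chains tested, Itgb1, the widely used β1 chain, rose with TGF-β1 by 1.19 in WT (limma adjusted p = 0.00398) and 1.08 in KO cells (limma adjusted p = 0.00852). Itgb7 fell by 2.32 in WT (SE 0.31, limma adjusted p = 1.51e-05) and fell by 2.16 in KO cells (SE 0.31, limma adjusted p = 3.61e-05). Itgb2, the β chain of LFA-1, fell by 1.31 in WT and fell by 1.65 in KO cells, from 14 to 34 reads per vehicle library to 4 to 8. Itga9 fell in KO cells by 1.77, a call lost in 4 of the fits that left out a library. Between genotypes 0 of the 4 were called by limma, DESeq2 or edgeR, and 0 had an unadjusted p under 0.05 by limma.

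Of the 5 listed ligands of MCAM, Lama4, the laminin chain it is best known to bind, stayed below the minimum, and the other 4 were tested. Lamb1, a laminin β chain, rose with TGF-β1 by 1.01 in WT (limma adjusted p = 0.00103) and 0.89 in KO cells (limma adjusted p = 0.00313). Lgals3, galectin-3, fell from 13479 ± 291 to 2796 ± 121 normalized counts in WT cells and from 17372 ± 3938 to 5712 ± 838 in KO cells (SD, n = 3), with limma adjusted p of 2.49e-07 and 1.26e-05. With TGF-β1 every KO library of Lgals3 was above every WT library, at 1.02 (SE 0.20, limma adjusted p = 0.00238). Lamc1 and Lgals1 were called in 0 of the 5 comparisons by limma, DESeq2 or edgeR, and reached an unadjusted p under 0.05 in 0 by limma.

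ADAM17 sheds VCAM1 from the cell surface, and MMP2 and MMP9 cleave ICAM5. Adam17 and Mmp2 were not called in any of the 5 comparisons by limma, DESeq2 or edgeR, and neither reached an unadjusted p under 0.05 by limma. Their limma adjusted p was 0.358 and 0.552 for TGF-β1 in WT cells. Mmp9 rose with TGF-β1 from 1 read over the WT vehicle libraries to 241, 188 and 223 reads, and from 4 reads over the KO vehicle libraries to 16, 33 and 37. Its KO libraries with TGF-β1 were all below the WT libraries, at -2.74 (SE 0.51, limma adjusted p = 0.00153).

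Markers of other cells that carry these adhesion molecules were low. Of 11 endothelial markers 2 had no read, 6 stayed below the minimum and 3 were tested; their summed normalized counts per library were 13.0 to 24.7 with vehicle and 33.0 to 51.9 with TGF-β1. Cdh5, which defines endothelium, had 0 reads in all vehicle libraries and in the KO libraries with TGF-β1 and 2, 3 and 7 reads in the WT libraries with TGF-β1. Selp and Cd93 rose with TGF-β1 in both genotypes, from at most 3 reads per vehicle library, the KO call of Cd93 being lost in 4 of the fits that left out a library. Of 11 leukocyte markers 5, with Itgal among them, had no read, and the sum was 16.2 to 33.9 with vehicle and 5.77 to 13.4 with TGF-β1, most of it Itgb2. That sum moved in the same direction as Vcam1 and Icam5, and its part in their differences was not tested. Of 7 epithelial markers 1 was tested, Lamb3, which rose with TGF-β1, and the sum over the list was 16.4 to 57.5. Of 5 neural and glial markers 4 had no read and the sum was 0 to 6.08.

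Fibroblast and stellate cell markers summed to 258526 normalized counts or more in every library, and 7 of 8 were tested. Lum had at most 5 reads. Dcn was low too, at 21.5 ± 13.8 in WT and 35.3 ± 19.8 in KO cells with vehicle and 0.98 ± 0.20 and 3.69 ± 1.09 with TGF-β1 (SD, n = 3), and Postn rose in WT cells by 0.96 (limma adjusted p = 0.00892). Between genotypes 0 of the 7 were called by limma, DESeq2 or edgeR, and 1, Fn1 with vehicle, had an unadjusted p under 0.05 by limma (adjusted p = 0.171).

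The genes of the panel whose profile over the 12 libraries was most like each of the 3 were ranked by Pearson's r of log2(normalized count + 1), as a description of libraries that share their factors and their 4 groups. For Vcam1 they were Efemp1 (r = 0.994), Adamts5 (r = 0.986) and Lgals9 (r = 0.986). Efemp1, the matrix glycoprotein fibulin-3, went from 5459 ± 1149 normalized counts in WT and 3081 ± 563 in KO cells with vehicle to 36.0 ± 10.0 and 19.5 ± 0.32 with TGF-β1 (SD, n = 3). For Icam5 they were Lgals3 (r = 0.958), Adgre5, the gene of CD97 (r = 0.943), and Ecm1 (r = 0.934). For Mcam the highest values were lower, with Pcdhga10 at 0.794, Loxl2 at 0.785 and Col8a1 at 0.771. Between the 3 genes r was 0.77 for Vcam1 and Icam5, 0.26 for Vcam1 and Mcam and 0.21 for Mcam and Icam5.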

How the data were processed

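RNA of WT and PKN2 KO PSCs was profiled with a QIAGEN targeted RNA panel. Reads per gene came from the maker's pipeline by the paper's methods, and the submitters' processing notes name STAR, mm10 and DESeq2 1.32. Whether molecular identifiers or strand were used in counting is not given in the sources used here. The deposited files are a table of raw counts and 2 tables of normalized counts. The latter are a signal that the authors made with 1 size factor per library. The raw table's header repeats a group name, so 6 raw columns were not used, and all 12 libraries came from the normalized tables. Values divided by the smallest value of a library were whole to within 0.000156 and equal to the raw counts of all 420 genes in the 6 usable raw columns. Median-of-ratios factors computed across all 12 libraries from the last 9 genes listed matched those factors to within a relative 5.96e-10, so both tables share 1 set of factors and were compared.

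The main fit was limma 3.58.1 (R 4.3.3; 1 mean per group, trend and robust) on log2(normalized count + 1), with a minimum of 10 in 3 libraries, 238 genes, Benjamini-Hochberg adjustment and a threshold of 0.05. Alternatives were TMM, median of ratios and total count scaling, DESeq2 1.42.0 and edgeR 4.0.16 on the recovered reads, other filters and pseudocounts (0.5 and 5), no variance trend, the replicate letter as a block, and leaving out each library. Named genes were the 3 members, the tested or called genes of the fixed lists, and the 3 genes most alike each member. Icam1 and Icam4 were added after their values were seen. Members and lists were chosen with earlier results of these data known. All p-values measure the spread between these libraries only.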

Additional observations from a re-analysis of the deposited data

Results flagged for a closer look

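Mmp9, the gelatinase that cleaves ICAM5, rose with TGF-β1 in both genotypes. Its log2 response was smaller in PKN2 KO PSCs, at a difference of -3.41 (SE 0.72), which was called. Mmp9 passed the minimum through libraries with TGF-β1 alone, so this call carries the limit of the filter and is given without p. The vehicle libraries held at most 2 reads of Mmp9, so the size of this difference depends on the pseudocount. The call was lost with edgeR on the recovered reads, at -4.45, and in 6 of the 12 fits that left out 1 library, at -3.04 without KO vehicle library A. With TGF-β1 all 3 KO libraries were below all 3 WT libraries, at 21.9 to 45.2 against 148.6 to 284 normalized counts.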

How the results depend on the processing

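The differences of Vcam1, Mcam and Icam5 moved by under 1 SD in 348 of 355 values over the alternatives, and 208 of 240 counts stayed within 1.5 times. Many of the 355 values could not move. A fitted difference stays the same with another filter, no trend or the block, or without a library of a group outside the comparison. The share of 348 is therefore no measure of stability. The differences that moved more were, for KO against WT with vehicle, Vcam1 at -0.68 (TMM) and -0.73 (median of ratios), and Mcam at -0.10 (median of ratios). For TGF-β1 in WT cells Icam5 was at -3.40 with DESeq2, -3.32 with edgeR and -1.72 with a pseudocount of 5, which also moved its genotype difference in response to 0.36. Icam5 has no value with a minimum of 10 in every library. With that minimum 3 other immunoglobulin-type genes were called for TGF-β1 in KO cells, since Bcam and Amigo2 were not tested.

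Genes called for KO against WT with TGF-β1 numbered 56 under TMM (27 higher, 29 lower), 55 under the median of ratios (25 and 30) and 65 with total reads (42 and 23), against 36 (21 and 15). The median log2 difference of all genes moved with scaling, from 0.21 to 0.03 (TMM) and -0.02 (median of ratios) for KO against WT with vehicle, and from 0.00 to -0.25 (total reads) for TGF-β1 in WT cells. With total reads 2 immunoglobulin-type genes were called between genotypes with vehicle and 1 with TGF-β1. Without a variance trend 4 genes were called for the difference in response. Leaving out 1 library gave 18 to 38 genes for KO against WT with vehicle (0 to 1 immunoglobulin-type genes) and 0 to 11 for the difference in response.

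The replicate letters did not meet the requirement for pairing, since the correlation of deviations over 18 same-letter pairs was 0.39 on average but -0.23 at the lowest, and the labels do not say what a letter marks. Each library was also matched with the most alike of the 3 libraries of another group. Of 36 such best matches 26 fell on the own letter, a hint from the data only. With the replicate block 87 genes were called between genotypes with vehicle, 101 with TGF-β1 and 42 for the difference in response, and with the block and no trend 71, 90 and 17. The block, with and without a trend, also put Vcam1 and Mcam among the called genes for KO against WT with TGF-β1 and Mcam for TGF-β1 in KO cells, and with the trend alone Vcam1 for KO against WT with vehicle and Mcam for the difference in response. For the immunoglobulin-type genes the block gave 3, 1 and 1, and the block with no trend 2 and 1 between genotypes. The causes were not tested. Depth limits Icam5 most, with 1 to 3 reads per WT library with TGF-β1.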
